A study of Mus musculus with 65 samples.

Results

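The 46 genes described here belong to the Wnt signalling pathway and were chosen by name, with earlier results of these data known: 11 Wnt ligands, 14 receptors and co-receptors, 7 secreted antagonists, 5 feedback genes, 4 Tcf/Lef transcription factors, 3 genes of the R-spondin system and 2 genes of Wnt secretion. They were read out among 25239 genes in 65 libraries of spinal cord progenitors made from HM1 mouse embryonic stem (ES) cells. Fixed cells had been stained for SOX2, PAX6, NKX6.1, OLIG2 and NKX2.2 and sorted by flow cytometry on days 4, 5 and 6. The sorted ventral neural tube progenitor types were p3, pMN, p2 and p0-1, listed from ventral to dorsal. The day 3 libraries are labelled as neuromesodermal progenitors (NMP), and a sorting gate for them is not given in the sources used here. The groups were D3-0-NMP, and on each of the 3 later days p3 and pMN at 100 and 500 nM of the Smoothened agonist SAG, p2 at 10 and 100 nM and p0-1 at 0 and 10 nM, which gave 25 groups of up to 3 libraries. Replicates of a group came from independent differentiations, but several types were sorted from cells under the same SAG condition, so that libraries of different types may share a dish.

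All groups came from the same ES cell line, kept on feeder cells. All had bFGF with the Porcupine inhibitor LGK up to day 2, and then bFGF with CHIR99021, SB-431542 and DMH1 up to day 3. CHIR99021 inhibits GSK3 and so activates canonical Wnt signalling, while SB-431542 and DMH1 block Activin/Nodal and BMP receptors. From day 3 all cells had retinoic acid with their dose of SAG and no CHIR99021. The day 3 libraries were therefore the only ones taken at the end of the Wnt-activating treatment, and that treatment, the day and the cell type cannot be told apart between day 3 and day 4. Cell type and SAG dose were confounded too: p3 and pMN shared both doses, p3 and p2 shared 100 nM, p2 and p0-1 shared 10 nM, and p3 or pMN shared no dose with p0-1.

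In canonical Wnt signalling, a lipid-modified Wnt ligand binds a Frizzled receptor with an Lrp5 or Lrp6 co-receptor, β-catenin escapes degradation and, with Tcf/Lef factors on DNA, switches on targets that include brakes on the pathway itself. Secreted proteins of the Sfrp and Dkk families hold ligands or co-receptors back, while R-spondins bound to Lgr receptors keep Frizzleds at the cell surface by removing the ubiquitin ligases Rnf43 and Znrf3. In the embryo, Wnt signalling maintains NMPs in the tail bud, and in the neural tube Wnt ligands of the roof plate act on dorsal progenitors.

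Each library held 7615114 to 13484815 reads on genes, of which the 46 genes took 0.213% to 0.394%. On day 3, 14070 to 15963 genes were detected per library, against 9718 to 14433 on day 4, 10571 to 13923 on day 5 and 10338 to 14088 on day 6. The NMP markers T, Cdx2, Nkx1-2, Fgf8 and Fgf17 summed to 2364 to 5981 normalised reads in the NMP libraries and to at most 455 in any day 4 library. Among the sort genes on days 5 and 6, Nkx2-2 was at 121 to 426 normalised reads in p3 and at 0 in all 12 p0-1 libraries. Olig2 was at 1368 to 6214 in pMN. The other sort genes and types are not given here. In sorted bulk libraries, fewer cells of a type and less RNA per cell cannot be told apart. Normalised reads are reads divided by a library's size factor, a log2 change is on the scale log2(normalised reads + 1), and a gene was called where limma's adjusted p was below 0.01 and the change exceeded 2-fold. A mean of at least 10 normalised reads over all libraries was required for testing, which 13964 genes and 43 members passed. Wnt1, Wnt8b and Wif1 did not pass. Wnt3a, Wnt6 and Dkk1 passed only through the 3 NMP libraries, with means of 3.18, 6.27 and 7.40 over the other libraries, so that a difference between day 3 and day 4 was built into their being tested. In 4 libraries fewer than 11000 genes were detected, namely D4-100-p3 replicate 3, D5-100-p3 replicate 2, D6-100-p3 replicate 2 and D6-100-p2 replicate 3, and members whose call was gained or lost without them are named beside the comparison.

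The promoters of 4 members that were high in NMP libraries are shown, because these genes stand for a canonical ligand (Wnt3a), another ligand (Wnt6), a Wnt antagonist (Dkk1) and a general feedback target (Axin2). The sequences are from RefSeq on GRCm38.p6, the assembly also known as mm10, and run 5′ to 3′ on the strand of the gene from 250 bases before to 50 bases after the start. Capitals mark the letters CTTTGAA or CTTTGAT, a core that Tcf/Lef factors bind, searched on both strands.
Wnt3a, chr11:59290702-59291001, minus strand: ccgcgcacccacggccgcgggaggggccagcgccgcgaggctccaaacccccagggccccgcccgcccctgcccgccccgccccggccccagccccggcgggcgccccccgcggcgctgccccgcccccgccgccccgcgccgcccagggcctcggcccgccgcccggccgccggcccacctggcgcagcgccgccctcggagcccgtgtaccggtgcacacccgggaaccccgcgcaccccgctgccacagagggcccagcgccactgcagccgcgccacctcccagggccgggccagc
Wnt6, chr1:74771642-74771941, plus strand: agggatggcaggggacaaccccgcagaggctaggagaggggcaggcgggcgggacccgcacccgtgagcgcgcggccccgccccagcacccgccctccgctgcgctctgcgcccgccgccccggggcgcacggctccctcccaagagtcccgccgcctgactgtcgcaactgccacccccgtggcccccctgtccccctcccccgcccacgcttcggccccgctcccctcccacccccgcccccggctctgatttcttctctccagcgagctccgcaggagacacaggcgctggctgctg
Dkk1, chr19:30549447-30549746, minus strand: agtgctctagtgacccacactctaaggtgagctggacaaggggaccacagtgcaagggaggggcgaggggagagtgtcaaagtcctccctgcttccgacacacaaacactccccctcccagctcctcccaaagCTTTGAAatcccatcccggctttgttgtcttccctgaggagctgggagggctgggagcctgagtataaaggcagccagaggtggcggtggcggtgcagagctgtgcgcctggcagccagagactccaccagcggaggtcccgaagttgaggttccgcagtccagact
Axin2, chr11:108920099-108920398, plus strand: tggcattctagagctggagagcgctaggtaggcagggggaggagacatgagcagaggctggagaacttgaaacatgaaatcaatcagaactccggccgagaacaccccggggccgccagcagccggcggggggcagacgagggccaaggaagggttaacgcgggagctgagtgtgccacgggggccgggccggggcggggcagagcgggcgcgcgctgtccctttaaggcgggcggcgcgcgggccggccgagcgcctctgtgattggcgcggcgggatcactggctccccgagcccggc
Of these windows, only that of Dkk1 held the letters, 117 bases before the start. RefSeq windows were matched for 31 of the 46 members, and 3 of them (9.68%) held a match, namely Wnt5b, Wnt11 and Dkk1. Among all genes with a window, 2671 of 27025 (9.88%) held one, so the share among the members was near that of all genes.

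From day 3 to day 4 the ligands Wnt3a and Wnt6, the feedback gene Notum, the antagonist Dkk1 and the R-spondin Rspo3 fell, each to 0 in at least 9 of 16 day 4 libraries, while the receptors Fzd2, Fzd3, Fzd7 and Fzd9 and the antagonists Sfrp1 and Sfrp5 rose. In all, 11 of the 43 members tested (25.6%) were called, 6 higher and 5 lower on day 4, against 3.49% of all genes tested. The median change was -1.75 among the members and -0.40 over all genes, and 25 members had an unadjusted p below 0.05. Wnt3a, Wnt6 and Dkk1 were tested only because of their reads on day 3. Among genes that pass the filter without the NMP libraries, 8 of 40 members were called, 6 higher and 2 lower, against 2.76% of 13780 genes.

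**Figure D1:**
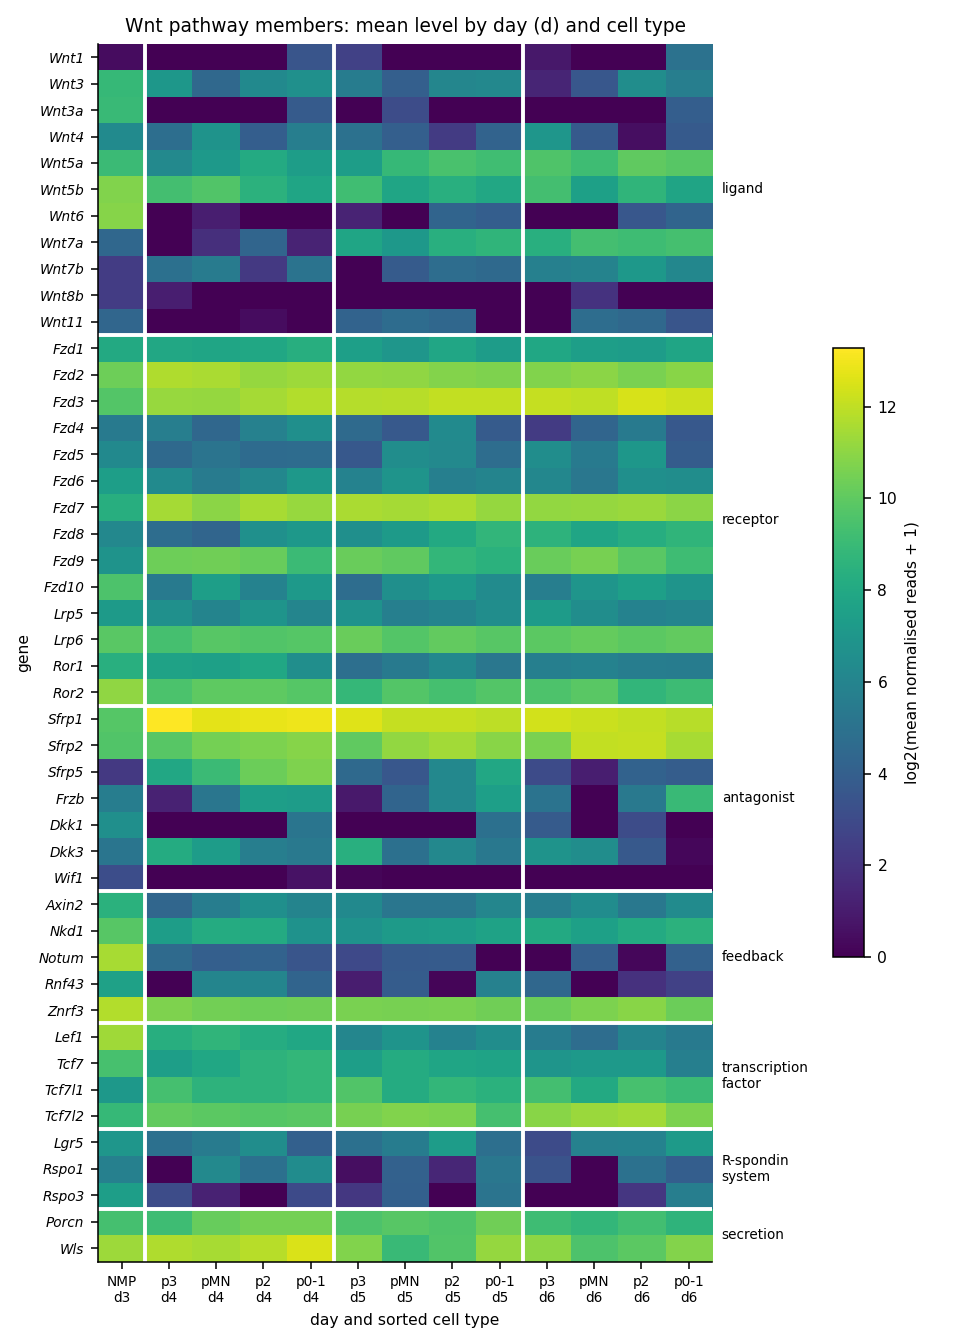
Mean level of each of the 46 members on a colour scale of log2(mean normalised reads + 1), with genes in rows ordered by role and NMP on day 3 and the 4 cell types on days 4, 5 and 6 in columns. Wnt6, Notum and Wnt3a are brightest in the NMP column, Fzd7, Fzd9 and Sfrp1 are brighter in the later columns, and Wnt7a brightens from day 5.

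Among the ligands, Wnt3a, a canonical ligand of the tail bud and roof plate, was read at 124, 756 and 650 normalised reads in NMP replicates 1, 2 and 3 and at 0 in 14 of 16 day 4 libraries, with a highest value of 35.8 (log2 change -8.10, SE 0.949, adjusted p = 6.88e-09). All NMP libraries lay above all day 4 libraries, though NMP replicate 1 stood well below the other two. Wnt6 was at 1857, 1629 and 2180 in NMP libraries and at 0 in 15 of 16 day 4 libraries, the exception having 4.79 (log2 change -10.72, SE 1.13, adjusted p = 3.90e-10). On days 5 and 6 both genes stayed at 0 in most libraries, in 23 of 24 and 19 of 22 for Wnt3a and in 21 of 24 and 19 of 22 for Wnt6. A library at 0 can hide up to 3 reads, which is 2.15 to 4.08 normalised reads depending on the library. Wnt3a was not called by DESeq2 (adjusted p = 0.395, with 1.41e-12 to 0.395 over all alternatives), which was the one alternative of 26 without the call.

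Of the remaining 7 ligands tested, none was called. Wnt3, another canonical ligand, was at 384, 696 and 340 in NMP libraries, all above every day 4 library, but its fitted change of -4.22 had an adjusted p of 0.148. Wnt5a, a ligand of the non-canonical branch, was at 179, 618 and 769 and then at 0 to 443 with a median of 152 (log2 change -2.83, adjusted p = 0.0451). Wnt5b was at 1210, 2310 and 1699 and then at 58.8 to 1341 with a median of 362. Its sets overlapped, as did those of Wnt5a.

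Of the 14 receptors and co-receptors, 4 were called, all of them higher on day 4, while the median change of the 14 was -1.54. Fzd7 was at 273, 376 and 319 in NMP libraries and at 1249 to 3964 with a median of 2529 on day 4 (log2 change 2.99, SE 0.317, adjusted p = 3.99e-10). Fzd9 was at 64.5, 181 and 84.3 and then at 381 to 2139 with a median of 1038 (3.33, SE 0.448, adjusted p = 2.39e-07). For both, every day 4 library exceeded every NMP library, and the means stood 7.80-fold and 9.40-fold apart. Fzd3, which also acts in axon guidance and planar cell polarity, went from 802, 970 and 737 to 1343 to 4696 with a median of 2499 (1.61, SE 0.245, adjusted p = 3.74e-06). Fzd2 went from 1271, 1177 and 1390 to 1930 to 3903 with a median of 2827 (1.16, SE 0.213, adjusted p = 0.000131). Neither gene overlapped between the days, and all 4 calls held under all 27 alternatives. Fitted changes of the other Frizzleds lay below 0 and none was called. Fzd10 was at 591, 860 and 809 in NMP libraries against 4.71 to 267 with a median of 96.1 on day 4, with no overlap but an adjusted p above the threshold in the fit of all libraries (log2 change -3.26, adjusted p = 0.145). Fzd5 had day 3 values of 37.2 to 114 and day 4 values of 0 to 102, with 13 of 16 day 4 libraries below all NMP libraries (-2.60, adjusted p = 0.404). The co-receptor Lrp6 was not called, with 883 to 1035 on day 3 and means of 815 to 1036 on the later days.

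Among the antagonists, Sfrp1, a secreted Frizzled-related protein that binds Wnt ligands, had the lowest adjusted p of all members in this comparison. It was at 1072, 1122 and 453 in NMP libraries and at 5095 to 14185 with a median of 7222 on day 4 (log2 change 3.16, SE 0.235, adjusted p = 4.15e-15). Its family member Sfrp5 was at 4.13, 6.75 and 0 and then at 15.6 to 2283 with a median of 629 (7.64, SE 1.52, adjusted p = 0.000417). Both genes were higher in every day 4 library than in any NMP library. Within day 4 the Sfrp5 means were 251 in p3, 518 in pMN, 1249 in p2 and 1648 in p0-1. The Sfrp5 call was lost with edgeR (adjusted p = 0.0571, the highest over 27 alternatives, the lowest being 7.92e-07) and without NMP replicate 3.

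Dkk1, which blocks the Lrp co-receptors and is itself a Wnt target, fell from 44.6, 161 and 80.2 to 0 in 12 of 16 day 4 libraries (log2 change -5.33, SE 1.06, adjusted p = 0.000421). All 4 libraries with reads were among the 5 of p0-1, with up to 63.9, and 13 of the 16 day 4 libraries lay below all NMP libraries. Rspo3, the R-spondin called, fell from 87.6, 289 and 145 to 0 in 13 of 16 day 4 libraries with a highest value of 34.9 (-6.69, SE 1.30, adjusted p = 0.000266). The sets of Rspo3 did not overlap. Both calls were lost with edgeR, with DESeq2 and without NMP replicate 2, with adjusted p of up to 0.0742 for Dkk1 and 0.106 for Rspo3.

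The 5 feedback genes, which the pathway switches on and which dampen it, were all lower on day 4 at an unadjusted p below 0.05, with a median change of -3.31, but 1 of them was called. Notum, an enzyme that removes the lipid from Wnt ligands, was at 1395, 3282 and 4161 in NMP libraries and at 0 to 61.1 on day 4, with 9 of 16 libraries at 0 (-9.50, SE 1.35, adjusted p = 7.86e-07). Its NMP libraries all lay far above every day 4 library, and the call was lost with DESeq2 alone (adjusted p = 0.213, with 7.80e-13 to 0.213 over 27 alternatives). Axin2, a scaffold of the β-catenin destruction complex, was at 237, 263 and 556 and then at 0 to 139 with a median of 50.4 (-3.31, adjusted p = 0.0467). Nkd1, which dampens signalling through Dishevelled, was at 597, 1027 and 1118 and then at 4.86 to 468 with a median of 184 (-2.88, adjusted p = 0.122). Neither Axin2 nor Nkd1 overlapped between day 3 and day 4, though neither was called in the fit of all libraries. For the ubiquitin ligase Znrf3 (2040, 3491 and 4630 against 244 to 2482) the sets did overlap.

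Of the 4 Tcf/Lef factors none was called. Lef1, itself a Wnt target, was at 2685, 2022 and 3317 in NMP libraries and at 135 to 720 with a median of 311 on day 4 (-3.04, adjusted p = 0.174). There was no overlap, and the day 3 mean was 8.54-fold that of day 4. Tcf7l1, best known as a repressor of Wnt targets, was at 104, 87.8 and 209 and then at 142 to 1010 with a median of 434 (1.74, adjusted p = 0.0155). Tcf7l2 was at 437, 464 and 538 and then at 567 to 1557 with a median of 862 (0.89, adjusted p = 0.0134). Every day 4 library exceeded every NMP library for Tcf7l2, whereas the sets of Tcf7l1 overlapped.

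In the fit of all libraries the spread is shared by all days, so that genes with scattered zeros on days 5 and 6 carry a large standard error between days 3 and 4 too. With the libraries of days 3 and 4 alone, an analysis added after seeing the data, 17 members were called, 7 higher and 10 lower on day 4, against 4.06% of all genes. These included all 11 calls of the full fit. Lef1 (-3.04, SE 0.327, adjusted p = 4.02e-05), Axin2 (-3.31, SE 0.71, adjusted p = 0.00911), Wnt3, Wnt5b and the receptor Ror2 were called lower and Tcf7l1 higher, while Fzd10, Nkd1, Rnf43 and Znrf3 were still not called. Counted without a model, 16 of the 43 members (37.2%) had no overlap between NMP and day 4 libraries, 7 higher on day 4 (Fzd2, Fzd3, Fzd7, Fzd9, Sfrp1, Sfrp5 and Tcf7l2) and 9 lower (Wnt3, Wnt3a, Wnt6, Fzd10, Axin2, Lef1, Nkd1, Notum and Rspo3), against 5.96% of all genes. Among the 17 calls are Wnt3a, Wnt6 and Dkk1, which were tested only because of their reads on day 3. Wnt3a and Wnt6 are also among the 9 lower genes without overlap. Neither count was repeated without such genes, so both shares include differences built into the testing.

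Several other measures moved with the day. NMP libraries had more genes detected, as given above, and the ES cell markers Nanog, Zfp42, Esrrb and Klf4 summed to 205 to 469 normalised reads in them against 1.46 to 142 on day 4. The roof plate and dorsal list (8 genes, 6 of them detected on day 3) summed to 198 to 238 on day 3 and to 0 to 156 on day 4. The part of these in the changes of the members was not tested. The paraxial mesoderm list (5 genes) summed to 4.08 to 130 on day 3, with 2 genes detected, and to 0 to 291 on day 4, with 4 detected, its defining marker Msgn1 being at 0 in all libraries. The neural crest list summed to 2.72 to 27.0 on day 3 and to 0.800 to 96.2 on day 4. The feeder fibroblast list summed to 58.4 to 253 on day 3 and to 98.8 to 779 on day 4, with Postn at 0 throughout. The ES cells had been kept on feeders, and the part of feeder RNA was not tested.

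**Figure D2:**
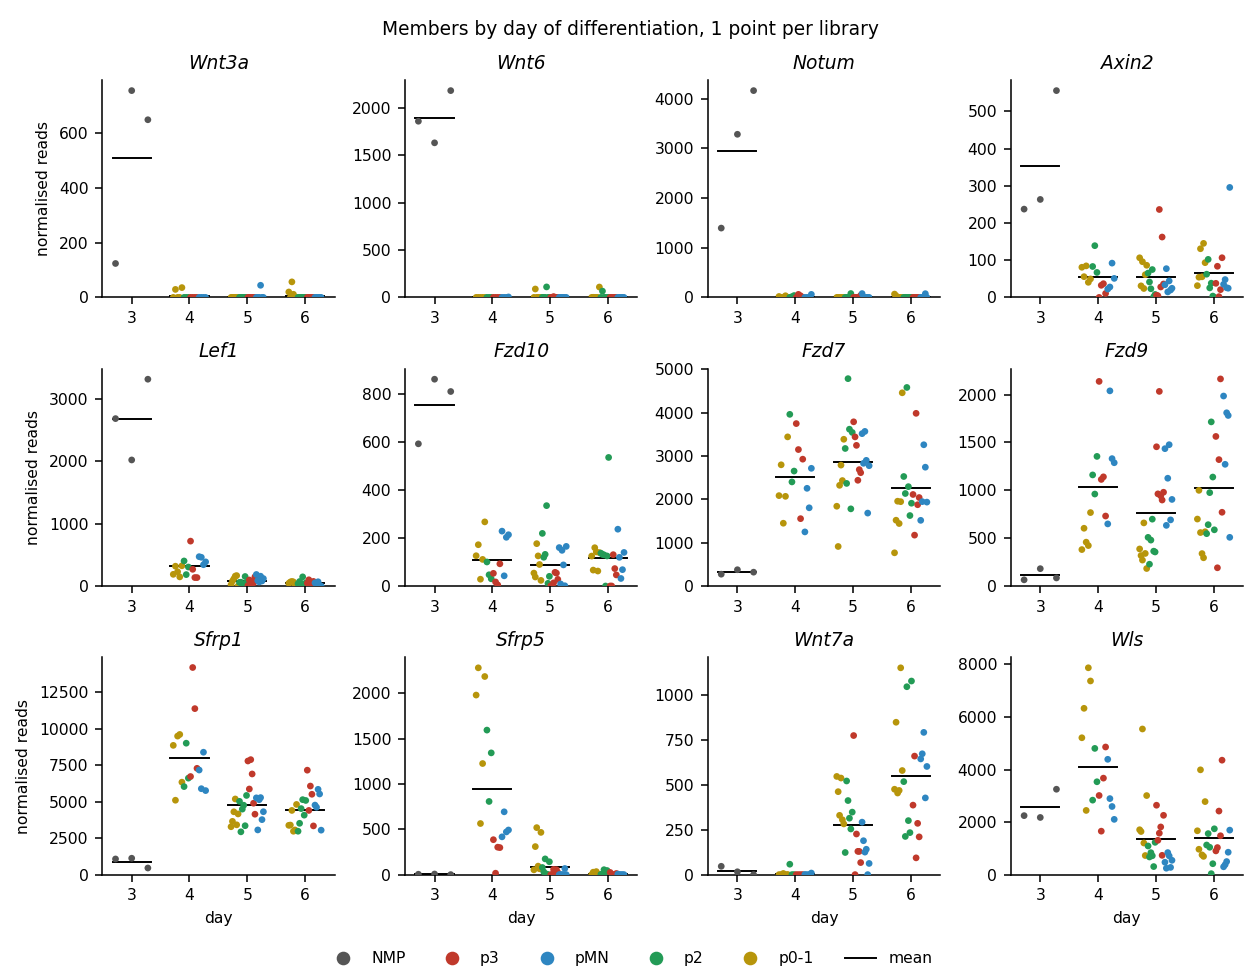
Normalised reads of 12 members (linear axes from 0) by day of differentiation, with 1 point per library coloured by cell type and a bar at the mean. Wnt3a, Wnt6 and Notum are below the NMP libraries in all later ones, Sfrp5 is high on day 4 and low after it, and Wnt7a is above 0 in 22 of 24 libraries on day 5.

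From day 4 to day 5 the ligands Wnt7a and Wnt5a rose, and the receptor Ror1, the antagonist Sfrp5, the transcription factor Lef1 and the Wnt carrier Wls fell. Thus 6 of 43 members (14%) were called, 2 higher and 4 lower, against 4.3% of all genes tested. This comparison shares its day 4 libraries with the one before. Wnt7a, a ligand expressed in the ventricular zone of the neural tube, was at 0 in 11 of 16 day 4 libraries and at most 57.8, and then at 0 to 774 with a median of 268 on day 5 (log2 change 6.13, SE 0.618, adjusted p = 2.20e-10). Of the 24 day 5 libraries, 22 lay above all of day 4, and the call held under all 48 alternatives. Wnt5a went from a median of 152 to 8.25 to 1024 with a median of 495 (2.43, SE 0.477, adjusted p = 0.000237). The day 5 libraries of Wnt5a were above the day 4 median in 19 of 24 cases and above all of day 4 in 13.

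Sfrp5 had its high values on day 4. After a median of 629 then, it was at 0 to 519 with a median of 41.6 on day 5 (-5.43, SE 0.809, adjusted p = 2.41e-06), and on day 6 it was at 0 in 13 of 22 libraries. All 24 day 5 libraries lay below the day 4 median. Lef1 fell from a median of 311 to 0 to 185 with a median of 78.6 (-2.67, SE 0.677, adjusted p = 0.00493), and was at 0 to 147 with a median of 44.6 on day 6. The Lef1 call was lost without D4-10-p2 replicate 3, without D4-100-p3 replicate 3 (adjusted p of up to 0.0293 over 48 alternatives, from 8.05e-05), and when the 4 libraries with fewest genes detected were omitted.

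Wls, which carries Wnt ligands to the cell surface, was at 1653 to 7871 with a median of 3603 on day 4 and at 243 to 5542 with a median of 964 on day 5 (-1.83, SE 0.312, adjusted p = 2.77e-05). Of the 24 day 5 libraries, 18 lay below all of day 4. Ror1, a receptor for Wnt5a, was at 0 to 463 with a median of 160 and then at 0 to 178 with a median of 3.32 (-3.61, SE 0.887, adjusted p = 0.00353). In 22 of 24 day 5 libraries Ror1 was below the day 4 median, but the call was lost with edgeR, without D4-100-p3 replicate 3 or D4-100-pMN replicate 3, and without the 4 libraries with fewest genes. Over 47 alternatives its adjusted p ran from 0.00083 to 0.0296. Fzd2 (-0.58), Fzd3 (0.60), Sfrp1 (-0.67) and Tcf7l2 (0.47) passed the adjusted p but not the 2-fold limit.

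From day 5 to day 6 no member was called by limma or by edgeR, against 0.852% of all genes, while DESeq2 called 1 and 13 members had an unadjusted p below 0.05 in limma. Tcf7l2 (0.76, adjusted p = 9.93e-06), Sfrp2 (0.61, adjusted p = 0.00107) and Porcn, the enzyme that adds the lipid to Wnt ligands (-0.90, adjusted p = 0.00698), passed the adjusted p with changes under 2-fold. The values of Wnt7a were 93.3 to 1151 with a median of 496 on day 6 (1.57, adjusted p = 0.0948), and those of Wnt5a 77.3 to 1427 with a median of 874 (1.00, adjusted p = 0.197). Marker genes of neurons summed to 848 to 4207 on day 6 against 166 to 1964 on day 5, and their part in these values was not tested.

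**Figure D3:**
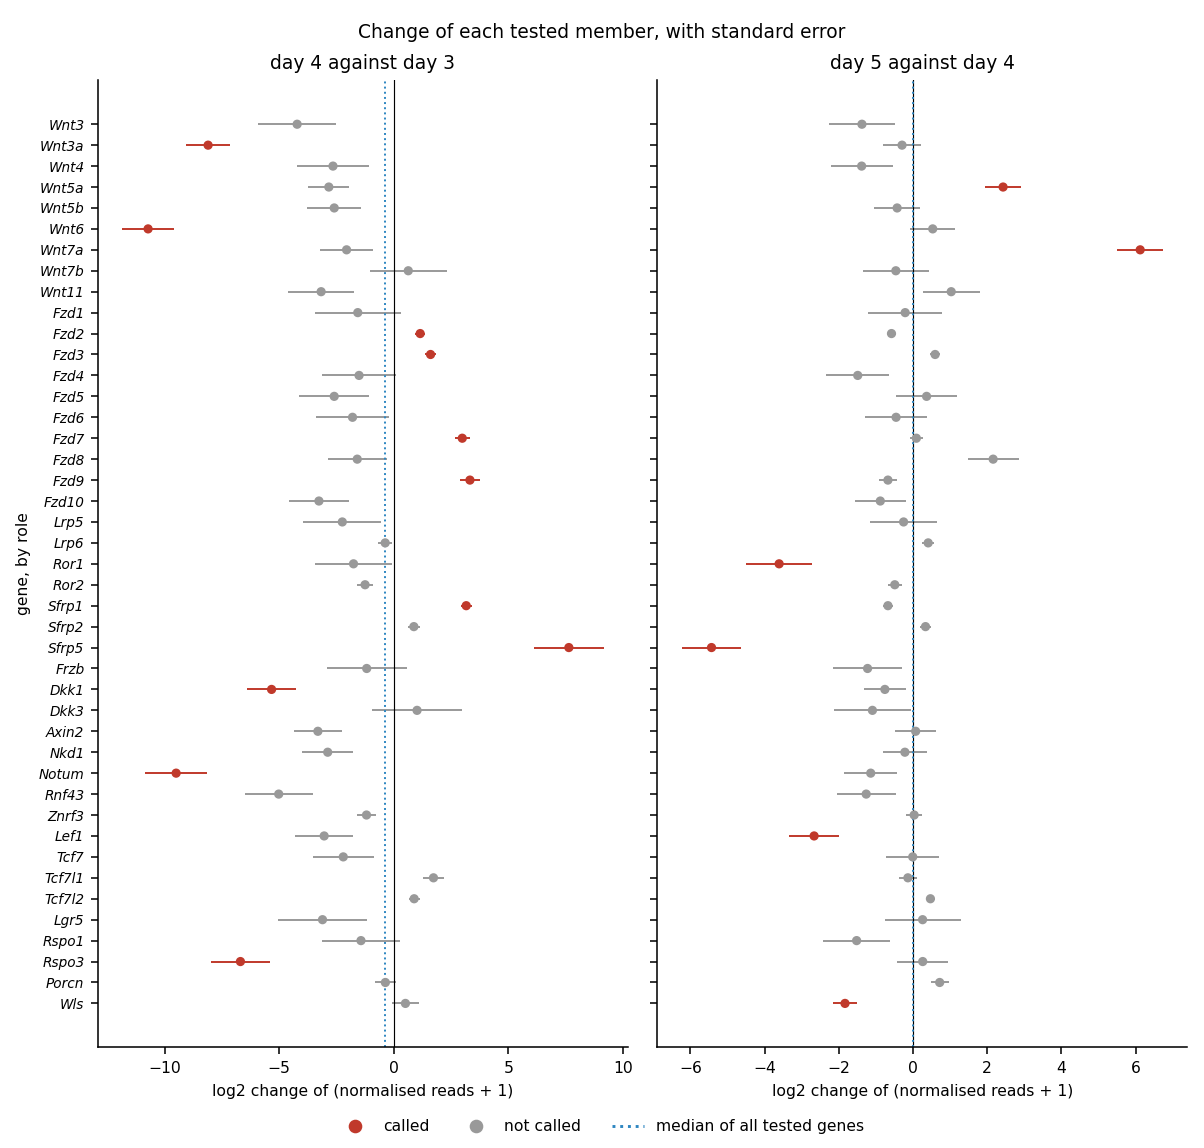
Log2 change of normalised reads + 1 (x axis) with its standard error for each of the 43 tested members (y axis, by role), from day 3 to day 4 on the left and from day 4 to day 5 on the right. Red points are called, grey points are not, and the dotted line is the median of all tested genes (-0.40 on the left).

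Read counts per kilobase of exon, summed within a family, show which gene made up most of the family's reads at each time. The ligand sums cover the 11 member ligands only. Other Wnt ligands were left out, among them Wnt8a, with a mean of 142 normalised reads over all libraries. Wnt8a was called lower on day 5 than on day 4, and its level by day is not given here. Its place among the ligands on days 3 and 4 is therefore not known from these sums. Of the ligand reads per kb, Wnt6 took 46.3% ± 11.2 (SD, n = 3) and Wnt5b 31.9% on day 3. On day 4 the summed ligand level was 266 against 2025 per kb on day 3, and Wnt5b took 64.6% ± 23.2 (SD, n = 16) of it. By day 6 Wnt7a took 36.5%, Wnt5a 27.5% and Wnt5b 25.4% of a sum of 495 per kb. Among these 11 ligands, the one leading by mean share was thus Wnt6 on day 3, Wnt5b on day 4 and Wnt7a on day 6.

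Among the Frizzleds, Fzd2 led on day 3 with 38.1% and Fzd10 followed with 26.8% ± 1.99 (SD, n = 3). On day 4 Fzd10 took 1.71%, while Fzd7 had 23.8% and Fzd9 21.9%. The summed Frizzled level was 936 per kb on day 3 and 2171, 1976 and 2042 on days 4, 5 and 6. After day 3 the sum was therefore higher for the Frizzleds and lower for the member ligands. The Sfrp family, with Frzb counted in it, summed to 620 per kb on day 3 and to 3087 on day 4, with Sfrp1 at 33.3% and 59.6% and Sfrp2 at 64.0% and 23.9%. By day 6 Sfrp2 again took the larger share, at 57.7% against 40.0% for Sfrp1.

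In the Tcf/Lef family the leading gene was Lef1 on day 3 and Tcf7l2 on the later days. Lef1 took 63.7% ± 7.63 of its reads per kb on day 3 (SD, n = 3), 15.6% on day 4, 4.46% on day 5 and 1.76% on day 6. Tcf7l2 took 9.23% ± 0.842 on day 3 (SD, n = 3), 36.4% on day 4, 51.5% on day 5 and 66.3% ± 11.2 on day 6 (SD, n = 22). The shares are descriptions of levels and were not tested as such.

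**Figure D4:**
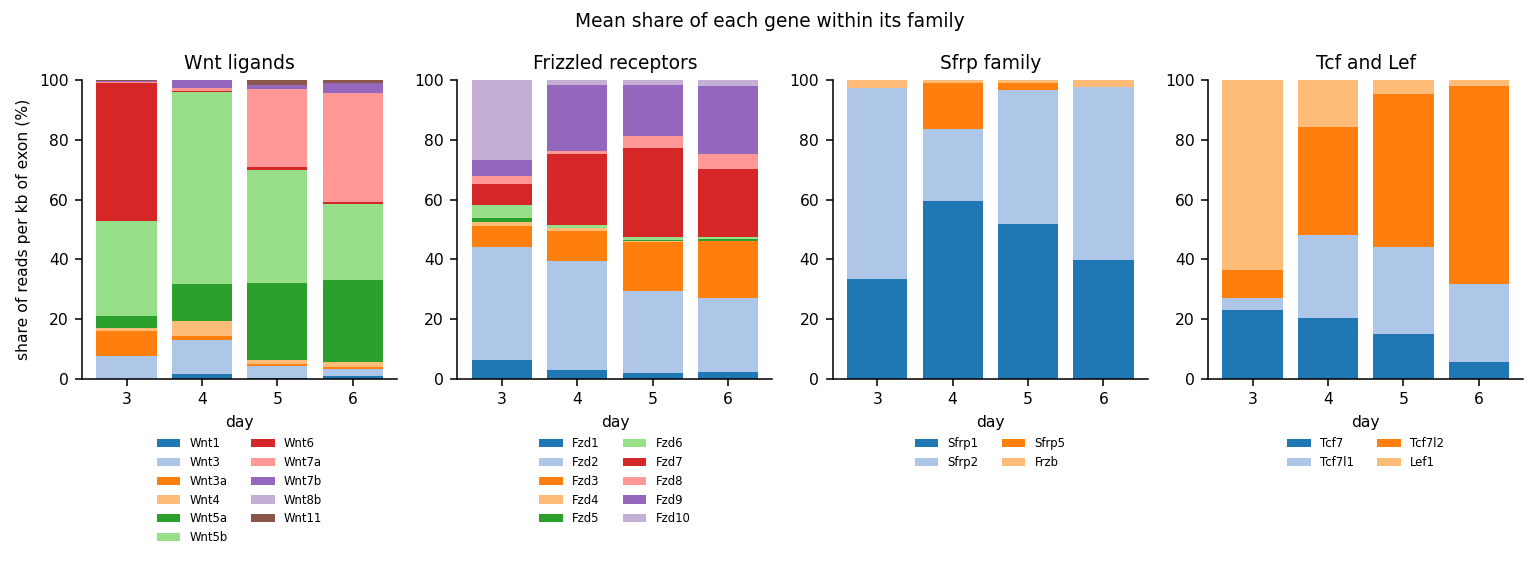
Stacked bars of each gene's mean share (% of reads per kb of exon, y axis) within the 11 member Wnt ligands, the Frizzleds, the Sfrp family and the Tcf/Lef family, by day (x axis). The band of Wnt6 is 46.3% of ligand reads on day 3 and all but gone on day 4, and that of Lef1 shrinks from 63.7% on day 3 to 1.76% on day 6 as that of Tcf7l2 grows.

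The next comparisons ask how the pathway differs among the sorted types over the libraries of days 5 and 6. Each type enters 3 of these comparisons with the same libraries, and they gave few calls. The libraries of day 4 were not in them and are given beside the results. Groups had equal weight in those day 4 differences. In p3 the single library D4-100-p3 replicate 3, with 9718 genes detected, therefore weighs as much as the 3 libraries of D4-500-p3. The group D4-10-p2 also held 1 library. Between p3 and pMN, the types sorted at the same SAG doses, 2 of 43 members (4.65%) were called against 0.695% of all genes. Between p3 and p2 there was 1 (2.33%) against 1.27%, and between p3 and p0-1 there were 2 against 1.43%. Between pMN and p2 there was none against 0.107% (none with edgeR, 3 with DESeq2, and 7 members with an unadjusted p below 0.05 in limma), between pMN and p0-1 there were 3 (6.98%) against 0.96%, and between p2 and p0-1 there was 1 against 0.322%.

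Sfrp2, a secreted Frizzled-related protein, was lowest in p3. On days 5 and 6 it was at 567 to 2295 with a median of 1028 in p3 (11 libraries), at 1585 to 5368 with a median of 2862 in pMN (11 libraries), at 1798 to 5029 with a median of 3706 in p2 (12 libraries) and at 1089 to 4884 with a median of 2333 in p0-1 (12 libraries). Of the 11 p3 libraries, 7 lay below all of pMN and 8 below all of p2. The fitted log2 difference was -1.37 for p3 against pMN (SE 0.177, adjusted p = 8.71e-07) and -1.60 against p2 (SE 0.172, adjusted p = 7.54e-09), and both calls held under all alternatives run, 30 against pMN and 31 against p2. Against p0-1 it was -0.98 (adjusted p = 0.000142), just under the 2-fold limit.

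The difference in Sfrp2 had the same sign on each day, at -0.63, -1.13 and -1.61 on days 4, 5 and 6 against pMN and at -0.88, -1.39 and -1.80 against p2. At the shared dose of 100 nM SAG, p3 had 1768, 567 and 1178 normalised reads on day 5 against 2414, 1798 and 3124 in p2. On day 6 the values at that dose were 2295, 2141 and 1889 in p3 and 4583, 4416 and 4698 in p2. Neither day overlapped between the types at this dose.

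Tcf7l1 was higher in p3 than in pMN, with 242 to 1171 and a median of 740 against 102 to 408 and a median of 322 on days 5 and 6 (log2 difference 1.42, SE 0.323, adjusted p = 0.00875). The Tcf7l1 mean on these days was 726 in p3, 279 in pMN, 563 in p2 and 443 in p0-1. All 11 pMN libraries lay below the medians of p2 and of p0-1, so pMN was the lowest type. Of the 11 p3 libraries, 9 lay above all of pMN, and the differences on days 4, 5 and 6 were 0.94, 1.55 and 1.29. The adjusted p lay close to the threshold and passed it in 12 of 30 alternatives, with a range of 2.63e-05 to 0.0294, and each of the 18 losses followed from leaving out 1 library. Tcf7l1 overlaps an annotated gene on the opposite strand, and whether the counting used strand is not given in the sources used here. Wls had the same order (734 to 4355 in p3 with a median of 1577, 243 to 1693 in pMN with a median of 497) and was not called in the fit of all libraries (1.60, adjusted p = 0.0225). It was called with the replicate block (adjusted p = 0.00446) and without the 4 libraries with fewest genes detected (1.70, SE 0.373, adjusted p = 0.00551).

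On days 5 and 6 Wls was at 35.8 to 1744 with a median of 938 in p2 and at 694 to 5542 with a median of 1654 in p0-1, overlapping p3 and pMN. Without the same 4 libraries it was also called higher in p3 than in p2 (1.76, adjusted p = 0.00212) and lower than in p0-1 in both pMN (-1.54, adjusted p = 0.00465) and p2 (-1.61, adjusted p = 0.00783), and Wnt5a was called lower in p3 than in p2 (-2.32, adjusted p = 0.00826). With the replicate block, Wls (-1.58, adjusted p = 0.00257) and Sfrp5 (-4.18, adjusted p = 0.00906) were called lower in pMN than in p0-1, which makes 5 calls there in place of 3. None of these was called in the fit of all libraries without the block.

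Floor plate cells lie next to p3 in the neural tube. Foxa2 marks the floor plate, but the paper also reports its expression in p3 progenitors themselves. It was at 232 to 3100 normalised reads with a median of 907 in the 11 p3 libraries of days 5 and 6. In pMN it was at most 368 and in p2 at most 136. Shh, the ligand that the floor plate secretes, was at 0.880 to 1335 with a median of 250 in p3, against at most 33.2 in pMN and 23.1 in p2. The part of such cells in the p3 values of Sfrp2, Tcf7l1 and Wls was not tested.

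**Figure D5:**
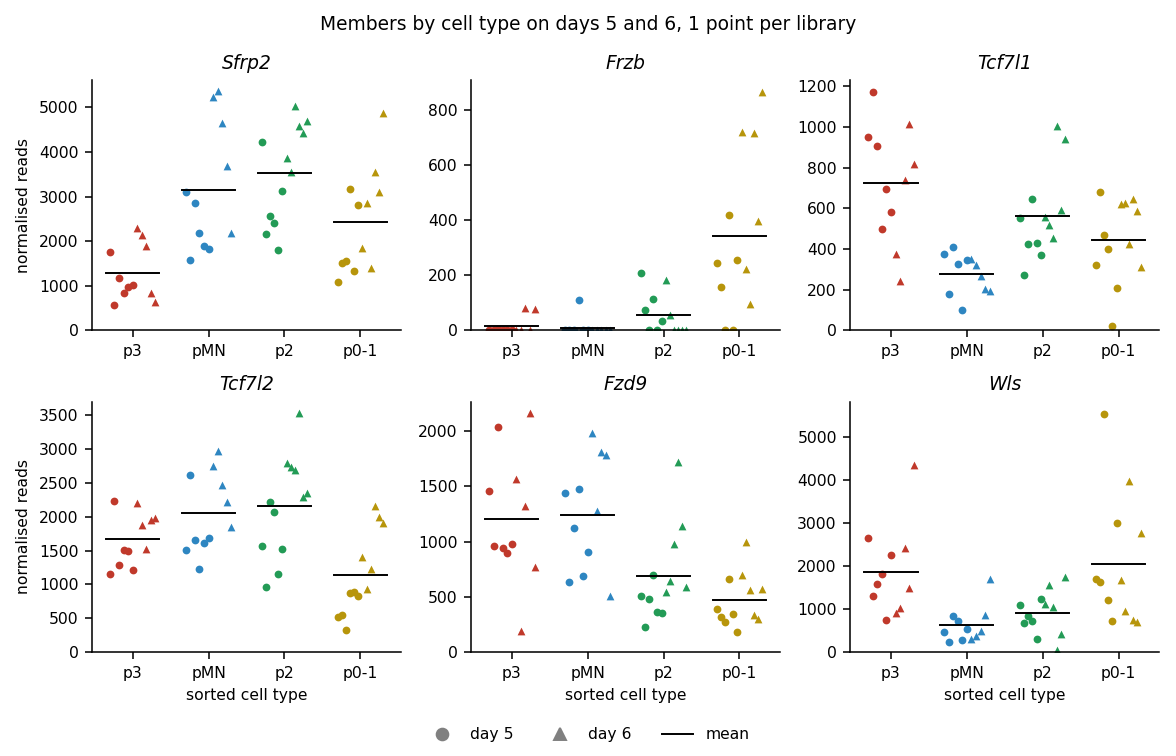
Normalised reads of 6 members (linear axes from 0) by sorted cell type on days 5 and 6, with 1 point per library, circles for day 5, triangles for day 6 and a bar at the mean. Sfrp2 is lowest in p3, Frzb is near 0 in p3 and pMN, and Fzd9 is higher in p3 and pMN than in p0-1.

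Frzb, another secreted Frizzled-related protein, had its highest median in p0-1, the most dorsal type sorted. On days 5 and 6 it was at 0 to 865 with a median of 252 in p0-1, with 2 of 12 libraries at 0, at 0 in 6 of 12 p2 libraries (highest 209), in 7 of 11 p3 libraries (highest 80.7) and in 10 of 11 pMN libraries (highest 109). All 11 p3 and all 11 pMN libraries lay below the p0-1 median. The log2 difference was -5.29 for p3 against p0-1 (SE 1.15, adjusted p = 0.00267) and -6.42 for pMN against p0-1 (SE 1.15, adjusted p = 0.000230). The sign was the same on day 4, with -6.18 for p3 and -4.83 for pMN. On that day, however, the mean log2 level of Frzb was 7.26 in p2 and 6.62 in p0-1. The first of these calls was lost with edgeR (adjusted p = 0.0291, with 6.90e-11 to 0.0291 over 31 alternatives), without D6-500-p3 replicate 1 and without the 4 libraries with fewest genes detected. Roof plate and dorsal markers summed to 0.943 to 1024 with a median of 128 in p0-1 libraries of days 5 and 6, with Atoh1 at 0 in p0-1. They summed to at most 777 in p2 (median 2.24), 179 in p3 and 134 in pMN. The part of dorsal cells in the Frzb values was not tested.

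Fzd9 was higher in the 2 most ventral types than in p0-1. On days 5 and 6 it was at 191 to 2164 with a median of 980 in p3, at 509 to 1986 with a median of 1272 in pMN, at 228 to 1715 with a median of 567 in p2 and at 183 to 1000 with a median of 364 in p0-1. The log2 difference from p0-1 was 1.33 in p3 (SE 0.296, adjusted p = 0.00340) and 1.41 in pMN (SE 0.296, adjusted p = 0.00252), with 5 of 11 p3 and 7 of 11 pMN libraries above all of p0-1. On days 4, 5 and 6 it was 1.52, 1.79 and 0.88 in p3 and 1.28, 1.57 and 1.24 in pMN. The p3 call was lost without any 1 of D5-10-p0-1 replicate 3, D6-100-p3 replicate 1 or D6-500-p3 replicate 1, and the pMN call without D6-500-pMN replicate 1, with adjusted p of up to 0.0315 and 0.0276.

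Tcf7l2 was higher in pMN and p2 than in p0-1, at 1230 to 2965 with a median of 1851 in pMN, 957 to 3537 with a median of 2255 in p2 and 331 to 2161 with a median of 914 in p0-1 on days 5 and 6. The log2 difference was 1.01 for pMN (SE 0.159, adjusted p = 2.14e-05) and 1.05 for p2 (SE 0.154, adjusted p = 1.49e-05). Of the pMN libraries 5 of 11, and of the p2 libraries 7 of 12, lay above all of p0-1. The difference lies at the 2-fold limit, so that leaving out 1 library ended the call in 7 cases for pMN and 4 for p2 without the adjusted p rising above 0.000212.

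The difference in Tcf7l2 was close to 0 on day 4, at 0.09 for pMN and -0.07 for p2, and it was 1.42 and 1.28 on day 5 and 0.61 and 0.82 on day 6. At the shared dose of 10 nM SAG, p2 had 1572, 957 and 2212 normalised reads on day 5 and p0-1 had 865, 891 and 833. On day 6 these values were 2795, 2742 and 2697 against 2161, 1999 and 1908. The types did not overlap at this dose on either day.

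The comparisons of SAG dose within a type asked whether the Hedgehog agonist moved the Wnt genes among cells of the same sorted identity. At 500 against 100 nM no member was called in p3 (0.0286% of all genes) or in pMN (0% of all genes, with 657 genes at an unadjusted p below 0.05), and none at 100 against 10 nM in p2 (0.0358%) or at 10 against 0 nM in p0-1 (0.0143%). The numbers of members at an unadjusted p below 0.05 were 4, 2, 5 and 4. edgeR called none in any of the 4 comparisons, while DESeq2 called 5, 2, 3 and 0. The smallest adjusted p of a member in p3 was that of Sfrp2 (log2 change -0.85, adjusted p = 0.175), and in p0-1 that of Tcf7l2 (0.86, adjusted p = 0.239).

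Whether cell types changed differently in time was asked by comparing the change from day 4 to day 6 in p3 with that in p0-1, and 2 members were called (4.65% against 3.03% of all genes). Porcn had the larger value (difference of log2 changes 6.47, SE 0.683, adjusted p = 2.90e-09). It rested on D4-100-p3 replicate 3, the sole library of its group, in which 9718 genes were detected and Porcn was at 0, the only 0 of Porcn among the 65 libraries. The 3 libraries of D4-500-p3 had 797, 1018 and 447, and without D4-100-p3 replicate 3 the difference was 1.85 with an adjusted p of 1. Leaving that library out removes its whole group. The day 4 level of p3 then rests on D4-500-p3 alone, so that the value of 1.85 is not the same contrast as 6.47. Dkk1 (6.35, SE 1.60, adjusted p = 0.00801) was at 0 in all 4 day 4 p3 libraries, and on day 6 it had 38.9 and 26.6 in a pair of p3 libraries. In p0-1 it had 54.7, 53.9, 0, 63.9 and 3.68 on day 4 and 0 in all libraries of day 6. The Dkk1 call was lost in 18 of 27 alternatives, D4-100-p3 replicate 3 left out being among them, and Dkk1 had entered testing only through the NMP libraries, which are not in this comparison. Without such genes, 1 of 40 members was called, against 3.05% of all genes. The share over all genes depended on few libraries too. Of the 423 genes called among all 13964, the difference was above 0 in 417 and below 0 in 6. When the 4 libraries with fewest genes detected were omitted, D4-100-p3 replicate 3 among them, 0 of 13964 genes were called.

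The other genes of the pathway, a list of 72 of which 59 were tested, give the setting. From day 3 to day 4, 14 of them (23.7%) were called, 6 higher and 8 lower, against 25.6% of the members. Which of the 59 passed the filter only through the NMP libraries was not checked. Part of the falls in this list may therefore have been built into the testing. The largest falls were those of T (Brachyury, -10.14, adjusted p = 1.55e-11), Sp5 (-9.93, adjusted p = 4.90e-16) and Cdx1 (-8.60, adjusted p = 1.43e-13), transcription factors of the tail bud that are known Wnt targets. The largest rises were those of the planar polarity gene Celsr1 (2.37, adjusted p = 8.75e-06), the cyclin gene Ccnd2 (2.22, adjusted p = 5.42e-16) and the glypican gene Gpc3 (1.71, adjusted p = 0.00768). T was also one of the NMP markers.

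From day 4 to day 5, 3 of these 59 genes were called: Cthrc1 (-4.48, adjusted p = 3.10e-05) and the ligand Wnt8a (-4.23, adjusted p = 2.83e-06) fell, and Celsr2 rose (1.05, adjusted p = 1.71e-07). From day 5 to day 6 the single call was Shisa3 (3.08, adjusted p = 0.00557). Between p3 and pMN, Celsr3 (-3.53, adjusted p = 0.00241) and Sp8 (-1.89, adjusted p = 0.000916) were lower and Gpc3 higher (1.61, adjusted p = 0.000611) in p3. Against p2, 3 of 4 called genes were lower in p3, among them Celsr3 (-3.35), Sp8 (-2.53) and the corepressor gene Tle1 (-1.36), and against p0-1, Sp8 was lower (-2.12) and Celsr1 (1.57), Gpc3 (1.44) and Vangl1 (1.13) higher. Vangl1, a planar polarity gene, was also the single call between pMN and p0-1 (1.59, adjusted p = 9.18e-08), and the list gave no call in the remaining comparisons.

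Over all 14 comparisons 21 members were called at least once, in 28 calls of a gene in a comparison. The 22 members tested and never called had means of 11.7 to 1577 normalised reads. They were the ligands Wnt3, Wnt4, Wnt5b, Wnt7b and Wnt11, the receptors Fzd1, Fzd4, Fzd5, Fzd6, Fzd8, Fzd10, Lrp5, Lrp6 and Ror2, the antagonist Dkk3, the feedback genes Axin2, Nkd1, Rnf43 and Znrf3, and Tcf7, Lgr5 and Rspo1. Their lowest adjusted p was 0.026, that of Ror2. Lrp6 had the narrowest range, with log2 changes of -0.37 to 0.64 over all comparisons, whereas Wnt4 ran from -2.65 to 6.72 with a lowest adjusted p of 0.0409. Of the 3 members not tested, Wnt8b had a mean of 0.479 over all libraries, Wif1 was read at a mean of 7.68 on day 3 and at no more than 3 reads in any later library, and Wnt1 had its highest day 4 value, 51.5, in 1 of 16 libraries, the other 15 being at 0. The Wnt1 mean was 3.22 on day 4, 1.24 on day 5 and 8.57 on day 6. Over days 5 and 6 it was 15.4 in p0-1, 3.05 in p3 and 0 in pMN and p2.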

How the data were processed

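Sorted, fixed cells were profiled by bulk RNA sequencing with SMART-Seq HT cDNA and Nextera XT libraries. The authors aligned reads with STAR in the nf-core rnaseq pipeline to mm10 with spike-in sequences, counted them with featureCounts (duplicates ignored), removed libraries that failed quality control and deposited counts divided by size factors, a signal of normalised reads. The strand setting is not given in the sources used here. In each library all values were whole multiples of 1 step (0.717 to 1.359, tolerance 0.01), which returned the reads, 100.0% of 834400 values being whole. Depth was 7615114 to 13484815 reads, and a gene at 0 allows up to 3 reads, counting error only. limma 3.58.1 (R 4.3.3) was fitted to log2(value + 1) of 13964 genes with a mean of at least 10, with 1 mean per group (25 groups, 65 libraries) and trend, and Benjamini-Hochberg adjustment over all of them, and groups had equal weight in each contrast. edgeR 4.0.16 (quasi-likelihood) and DESeq2 1.42.0 on the recovered reads, another pseudocount, filters, scalings, a replicate block and leaving out libraries were alternatives. Statistics were tested on simulated data. Every member called at least once was described by library, never-called members by range, and at most 3 other pathway genes per direction were named. The members and lists were chosen with earlier results of these data known. Exon lengths came from the deposited mm10 annotation and promoters from RefSeq (GRCm38.p6). The sum of 1 marker list is not reported here.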

Additional observations from a re-analysis of the deposited data

Results flagged for a closer look

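In a pair of members the change from day 4 to day 6 differed between p3 and p0-1 by the test of that difference itself. For Porcn the difference of log2 changes was 6.47 (limma, adjusted p = 2.90e-09), and in the single D4-100-p3 library Porcn was at 0. For Dkk1 the difference was 6.35 (limma, adjusted p = 0.00801), it was at 0 in most libraries of both types, and it was tested only because of its reads in the NMP libraries. Both values are given in the report with the libraries they rest on, and neither was called without D4-100-p3 replicate 3. Groups held at most 3 libraries, too few for a check of single libraries against their own group.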

How the results depend on the processing

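No called change of a member turned its sign under any alternative. For day 4 against day 3, 11 members were called, 7 with a mean of at least 100 (fewer genes tested), 17 with the libraries of days 3 and 4 alone and 9 to 12 with 1 library left out. edgeR called 11 (8 of them shared), DESeq2 13 (7 shared) and a pseudocount of 10 gave 13 (11 shared). For the other comparisons, in the order used in the report, the counts with 1 library left out were 4 to 7 for day 5 against day 4, 0 to 1 for day 6 against day 5 (1 without D5-100-p3 replicate 2), 1 to 2 for p3 against pMN, 1 to 2 for p3 against p2 (2 without D6-100-p2 replicate 3 or D6-100-p3 replicate 2), 1 to 3 for p3 against p0-1, 0 for pMN against p2, 1 to 4 for pMN against p0-1 (1 without D6-500-pMN replicate 1), 0 to 2 for p2 against p0-1, 0 for each SAG comparison and 0 to 2 for the change in time of p3 against p0-1. DESeq2 called 1 member for day 6 against day 5, 7 for p3 against pMN, 7 for p3 against p2, 7 for p3 against p0-1, 3 for pMN against p2, 7 for pMN against p0-1, 3 for p2 against p0-1, 5, 2, 3 and 0 for SAG in p3, pMN, p2 and p0-1, and 7 for the change in time. edgeR gave 1 for p3 against p0-1 and 1 for the change in time, for which a pseudocount of 10, a mean of at least 100 and quantile normalisation gave 1 each. Quantile normalisation gave 5 for pMN against p0-1. Without the 4 libraries with fewest genes detected, a setting chosen after seeing the data like that of days 3 and 4 alone, 4 were called for day 5 against day 4, 3 for p3 against pMN, 3 for p3 against p2, 1 for p3 against p0-1, 4 for pMN against p0-1, 2 for p2 against p0-1 and 0 for the change in time. Quantile normalisation moved the median of all genes from -0.40 to -0.00588 between days 3 and 4, and 12 members were then called. The cause of these changes was not tested.

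Fitting the replicate number as a block (replicate block) called 12, 6, 0, 3, 1, 2, 0, 5, 1, 0, 0, 0, 0 and 2 members in the 14 comparisons, the only count moved by over 1.5 times being that of pMN against p0-1 (5 against 3). The calls gained were Tcf7l1 for day 4 against day 3 (adjusted p = 0.00767), Wls for p3 against pMN, and Wls and Sfrp5 for pMN against p0-1. Libraries of the same day with the same number had residuals correlated with a median of 0.0334 over 186 pairs (3 above 0.1). With different numbers the median was -0.0189 over 358 pairs. The correlations were small, but 54 of 60 libraries correlated best with their own number. Libraries of the same number thus shared some variation that the fit without the block leaves out. Several types were sorted from one condition, but whether the number marks a shared dish is not given in the sources used here, so both fits are reported.

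Over all genes the counts depended on the tool. DESeq2 called 1067 genes for day 4 against day 3 (limma 488, 1346 without a filter and 292 with a mean of at least 100), 2321 for day 5 against day 4 (limma 601), 899 for day 6 against day 5 (limma 119), 587 for pMN against p2 (limma 15), 665, 442, 645 and 424 for SAG in p3, pMN, p2 and p0-1 (limma 4, 0, 5 and 2) and 2268 for the change in time (limma 423, 118 with quantile normalisation and 208 with a pseudocount of 10). Without the 4 libraries with fewest genes detected, limma called 0 genes for the change in time. With at most 3 libraries a group, and 1 in a pair of groups, a change below the 2-fold limit or in a gene with many zeros may go uncalled.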
